A study of Drosophila melanogaster with 12 samples.

Results

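The 10 genes described here act at the entry into mitosis and the exit from it. They are the mitotic cyclin genes *CycA*, *CycB* and *CycB3*, the kinase genes *Cdk1*, *polo*, *aurA* and *aurB*, the phosphatase gene *stg* (*string*), the spindle checkpoint gene *BubR1* and *fzy* (*fizzy*). They were chosen by name, by an exact match of the gene symbol in the deposited tables, and all 10 were found among 17208 genes in both tables. RNA was sequenced from discs of *Drosophila melanogaster* larvae of the third instar, in 12 libraries. The eye antennal discs came from 3 GMR-Gal4 > UAS-*fuss* and 3 GMR-Gal4 > w1118 pools of 40 discs, and the wing discs from 3 nub-Gal4 > UAS-*fuss* and 3 nub-Gal4 > w1118 pools of 30 discs. *fuss* encodes the fly homologue of the Skor corepressors, and all pools of a tissue carry the same Gal4 driver. The paper describes GMR-Gal4 as active behind the morphogenetic furrow, while the pools also hold the antennal part and the retina ahead of the furrow. nub-Gal4 drives expression in the wing pouch, and the pools hold whole wing discs. A source field of the eye samples names nub-Gal4, but their genotype field and the methods of the study name GMR-Gal4, which was used here.

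The value given for each gene and tissue is the authors' mean normalized count. That is the mean over all 6 libraries of a tissue after the authors' normalization. It pools the *fuss* overexpressing and the control libraries, so neither an effect of *fuss* on these genes nor a spread between libraries can be read from it. No standard deviation, interval or test is given below for this reason, and a difference between the tissues has no replicate check. The depth of the single libraries is unknown, and the means sum to 29977881 in eye and 34175754 in wing discs. The tables were normalized separately. To set the tissues side by side, each mean was expressed as its share of the table sum, in parts per 1000000 (ppm). Levels of different genes were compared only after division by the median length of the annotated transcripts, in kilobases (kb). In whole discs a lower level can come from fewer dividing cells, from less RNA per cell or from other sources. These cannot be told apart. The Gal4 driver differs between the tissues as well, and 3 of the 6 libraries in each mean overexpress *fuss*. A difference between the tissues can thus include an effect of the driver or of *fuss*, and these cannot be separated here.

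The labelled tissues were checked against their markers. The 7 retinal markers *ey*, *toy*, *eya*, *so*, *gl*, *chp* and *elav* summed to 1599 ppm in eye and 118 in wing discs. The wing markers *vg*, *nub*, *ap* and *rn* summed to 130 ppm in eye and 857 in wing discs, with *rn* at 111 in eye and 148 in wing discs. The antennal markers *Dll*, *hth* and *ss* summed to 942 ppm in eye and 786 in wing discs, a ratio of 1.20, and so hardly separated the pools. All of these markers reached a mean of 10 normalized counts in both tissues. Other cell types differed between the pools as well. The summed level of 5 haemocyte markers was 318 ppm in eye and 101 in wing discs, that of 5 neuroblast markers 73.9 in eye and 37.3 in wing discs, that of 3 adepithelial myoblast markers 53.7 in eye and 118 in wing discs, and that of the fat body genes *Lsp2* and *Fbp1* 2619 in eye and 6801 in wing discs. Of the neuroblast markers, *dpn* stood at 28.1 ppm in eye and 21.4 in wing discs and *insc* at 11.2 in eye and 10.2 in wing discs. *mira* stood at 25.1 in eye and 3.19 in wing discs, *ase* at 6.81 in eye and 2.08 in wing discs, and *wor* at 2.65 in eye and 0.398 in wing discs. Of the myoblast markers, *zfh1* stood at 49.4 ppm in eye and 59.8 in wing discs. *twi* stood at 3.23 in eye and 36.0 in wing discs, and *Him* at 1.09 in eye and 22.4 in wing discs. The part of these cell types in the differences below was not tested. The germ line markers *vas*, *nos* and *osk* summed to 2.22 ppm in eye and 0.503 in wing discs, of which *vas* made up 1.95 in eye and 0.373 in wing discs, while *osk* was listed at 0 in wing discs. The testis markers *topi* and *bam* summed to 0.798 ppm in eye and 0.925 in wing discs, and *aly*, the other of that list, was listed at 0 in both tissues. *fuss* itself, transgene included, stood at 555 ppm in eye and 303 in wing discs.

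Entry into mitosis is driven by the kinase Cdk1 bound to a mitotic cyclin. Cdk1 is held inactive by inhibitory phosphorylation until the Cdc25 phosphatase String removes it, and in many *Drosophila* tissues the transcription of *stg* is the step that times the division. Polo and the Aurora kinases then build the spindle and correct its attachments. BubR1 is part of the checkpoint that delays anaphase, and Fizzy, the fly Cdc20, activates the anaphase promoting complex (APC/C), the ubiquitin ligase that has the mitotic cyclins destroyed. In the larval eye disc, cells arrest in G1 within the morphogenetic furrow, and a subset divides once more behind it in the second mitotic wave, whereas divisions in the wing disc are spread over the epithelium.

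The *stg* gene stood apart from the other members. It lies on the minus strand of chromosome 3R from 29251826 to 29255800 (FBgn0003525, BDGP6.54 annotation) and has 2 annotated transcripts. Its mean normalized count was 8286 in eye and 4329 in wing discs, which is 276 ppm in eye and 127 ppm in wing discs. Relative to the table sums the level of *stg* was 2.18-fold higher in eye than in wing discs, a log2 difference of 1.13. By its level per kb, *stg* stood at percentile 91.9 of the protein coding genes in eye and at percentile 80.4 in wing discs. Its log2 difference lay 1.28 above the median of the other 9 members, which ranged from -0.35 to 0.15.

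Of the 3 mitotic cyclins, *CycA* and *CycB* were the abundant ones in both tissues. Cyclin A is the essential mitotic cyclin of the fly, and its gene (FBgn0000404) lies on chromosome 3L from 11826719 to 11833578 on the minus strand. *CycA* had a mean normalized count of 9369 in eye and 9598 in wing discs, or 313 ppm in eye and 281 ppm in wing discs, with a log2 eye over wing difference of 0.15 (-0.03 without rescaling of the tables). Cyclin B, whose destruction accompanies the exit from mitosis, is encoded on chromosome 2R from 22803521 to 22806948 on the minus strand (FBgn0000405). For *CycB* the mean normalized count was 7574 in eye and 9952 in wing discs, or 253 ppm in eye and 291 ppm in wing discs, with a log2 difference of -0.20. Cyclin B3, which is nuclear and destroyed later than the other 2, is encoded on chromosome 3R from 24867934 to 24870816 on the minus strand (FBgn0015625). *CycB3* had a mean normalized count of 3249 in eye and 3540 in wing discs and a log2 difference of 0.06 (-0.12 without rescaling). Per kb of transcript the level of *CycA* was 114 ppm in eye and 103 in wing discs, that of *CycB* 97.5 in eye and 112 in wing discs, and that of *CycB3* 40.6 in eye and 38.8 in wing discs. *CycA* thus stood above *CycB* in eye discs and below it in wing discs, although with the coding length in place of the transcript length it stood above *CycB* in both. The ratio of *CycA* to *CycB* per kb was 1.17 in eye and 0.914 in wing discs, and that of *CycB3* to *CycB* was 0.416 in eye and 0.345 in wing discs.

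*Cdk1* (FBgn0004106), the catalytic partner of these cyclins, has 1 annotated transcript and lies on the minus strand of chromosome 2L from 10384739 to 10386262. Its mean normalized count was 4204 in eye and 5059 in wing discs. Scaled to the table sums, the level was 140 ppm in eye and 148 in wing discs, a log2 difference of -0.08. The transcript is short, with 1082 bases, so *Cdk1* ranked as the second of the members per kb in both tissues, at 130 ppm per kb in eye and 137 in wing discs. By coding length it ranked 5 in eye and 4 in wing discs.

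Among the kinases beside *Cdk1*, *polo* stood high and the Aurora genes lower. *polo* (FBgn0003124) encodes the founding member of the Polo-like kinases, which act on centrosomes, chromosomes and the cleavage furrow, and lies on the plus strand of chromosome 3L from 20309654 to 20313466. *polo* had a mean normalized count of 10397 in eye and 13179 in wing discs, with a log2 difference of -0.15. Its level per kb was 131 ppm in eye and 145 ppm in wing discs. Aurora A matures the centrosomes and is encoded by *aurA* (FBgn0000147) on the plus strand of chromosome 3R from 11963124 to 11964826. The mean normalized count of *aurA* was 950 in eye and 1255 in wing discs, with a log2 difference of -0.21, and its level per kb was 20.1 ppm in eye and 23.3 ppm in wing discs. Of the exon bases of *aurA*, 153 of 1577 are shared with *CG12213* on the opposite strand. Since no source used here says that the counting used the strand, reads from that stretch cannot be assigned with certainty. Aurora B is the kinase of the chromosomal passenger complex, which corrects the attachment of kinetochores and acts in cytokinesis. Its gene *aurB* (FBgn0024227) lies on the minus strand of chromosome 2L from 10856797 to 10858094. *aurB* had a mean normalized count of 1918 in eye and 2440 in wing discs, with a log2 difference of -0.16. Per kb *aurA* stood at 0.371 times the level of *aurB* in eye and at 0.386 times in wing discs.

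*BubR1* and *fzy*, genes of the checkpoint and of mitotic exit, had the most negative differences of the members. *aurA* (-0.21) and *CycB* (-0.20) lay close to *fzy*, and no spread between libraries is at hand. The 8 other listed checkpoint genes had a median of -0.10 and the 12 APC/C genes and cofactors one of -0.07. *BubR1* (FBgn0263855), whose product binds Fizzy and holds back the APC/C until all kinetochores are attached, lies on the minus strand of chromosome 2R from 5969099 to 5974385. Its mean normalized count was 3229 in eye and 4690 in wing discs, or 108 ppm in eye and 137 ppm in wing discs, and its log2 difference of -0.35 was the lowest of the 10. *fzy* (FBgn0001086) lies on the plus strand of chromosome 2L from 16310956 to 16313097. Its mean normalized count was 3488 in eye and 4706 in wing discs, or 116 ppm in eye and 138 ppm in wing discs, with a log2 difference of -0.24. Of 1996 exon bases of *fzy*, 62 are shared with *cact* on the opposite strand, and the limit given for *aurA* holds for that stretch too. Per kb *fzy* stood 2.50 times above *BubR1* in eye and 2.33 times above it in wing discs, with a transcript of 4626 bases for *BubR1*.

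**Figure D1:**
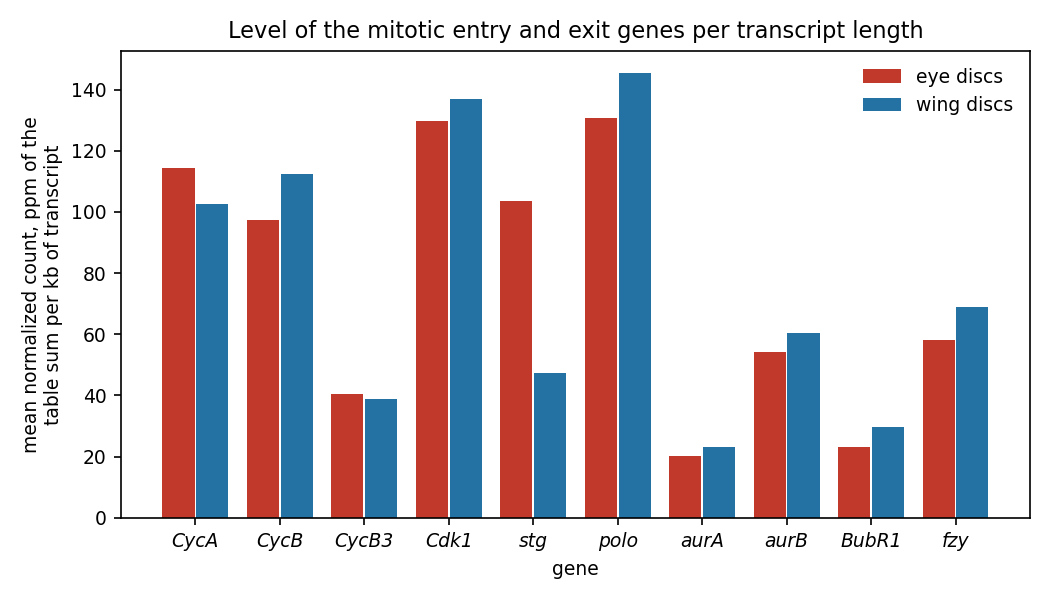
Level of each of the 10 genes, as the authors' mean normalized count in ppm of the table sum per kb of the median annotated transcript (vertical axis), in eye discs (red) and wing discs (blue). Each bar is 1 pooled value over 6 libraries, so there is no error bar. The bar of *stg* is 104 in eye and 47.5 in wing discs, while for the other 9 genes the bars of the tissues are closer together.

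Per kb the order of the members differed between the tissues in the place of *stg* and in that of *CycA* and *CycB*. In eye discs the order ran from *polo* (131 ppm per kb) over *Cdk1*, *CycA*, *stg*, *CycB*, *fzy*, *aurB*, *CycB3* and *BubR1* to *aurA* (20.1). In wing discs it ran from *polo* (145) over *Cdk1*, *CycB*, *CycA*, *fzy*, *aurB*, *stg*, *CycB3* and *BubR1* to *aurA* (23.3). *stg* thus took the fourth place in eye discs and the seventh in wing discs. Without a spread between libraries it cannot be said which neighbours in this order differ, and *polo* and *Cdk1* in eye discs are only 131 and 130 apart. With the longest transcript of each gene in place of the median, *Cdk1* came before *polo* in both tissues, and with the coding length *CycA* was the first in eye discs and *stg* ranked 3 in eye and 5 in wing discs.

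Ratios between genes of the same table do not depend on how the tables are scaled. *Cdk1* was taken as the common partner. The level of *stg* per kb was 0.799 times that of *Cdk1* in eye and 0.347 times in wing discs, so the ratio was 2.30 times higher in eye discs. For the other members this factor lay between 0.829 for *BubR1* and 1.17 for *CycA*. The level of *polo* relative to *Cdk1* was 1.01 in eye and 1.06 in wing discs, that of *aurB* 0.417 in eye and 0.441 in wing discs and that of *fzy* 0.450 in eye and 0.504 in wing discs. Relative to *CycB*, *stg* stood at 1.06 in eye and 0.422 in wing discs.

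**Figure D2:**
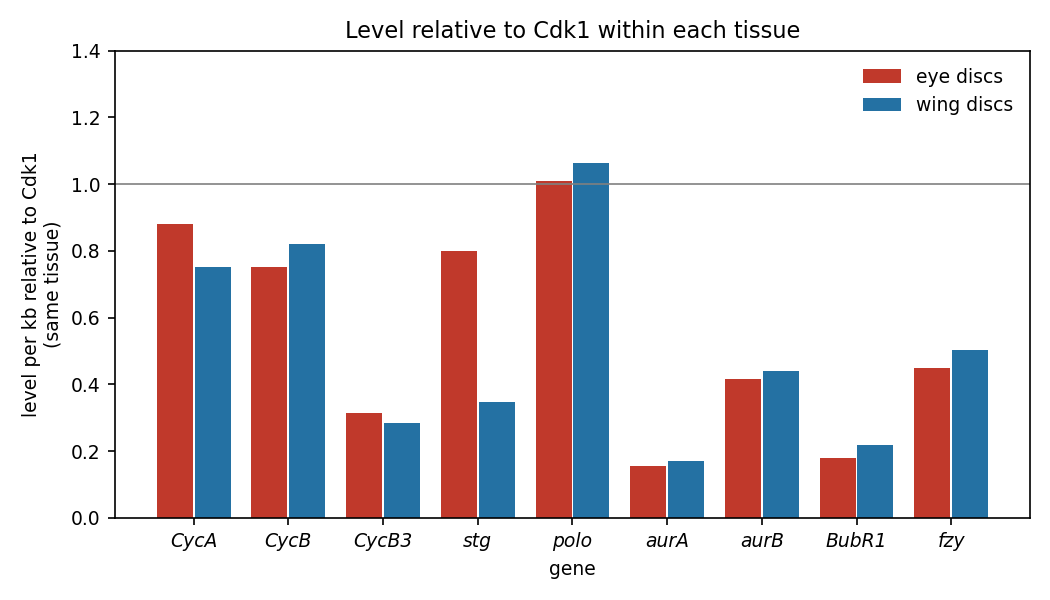
Level per kb of 9 genes divided by that of *Cdk1* in the same tissue (vertical axis, no unit), in eye discs (red) and wing discs (blue), from 1 pooled value per gene and tissue. The line marks the level of *Cdk1*. *stg* lies at 0.799 in eye and 0.347 in wing discs, and *BubR1* at 0.180 in eye and 0.217 in wing discs.

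Of the 10 members, 1 (*stg*) was at least 1.5-fold higher in eye than in wing discs and 0 were at least 1.5-fold lower. Over all 9465 genes that reached a mean of 10 in both tissues, 12.9% were at least 1.5-fold higher in eye discs and 7.68% at least 1.5-fold lower. The share of the members past the threshold is thus near that of all genes, and the count itself is not a result about the group. At a fold of 2, *stg* was again the member that was higher and 0 were lower, beside 9.06% higher and 4.48% lower of all genes. At a threshold midway between 1 and 1.5, *stg* was higher and *BubR1* lower, beside 19.2% higher and 13.2% lower of all genes. *stg* lay at percentile 91.8 of the log2 differences of all genes, and *BubR1* at percentile 12.1. The other 9 members differed by less than 1.5-fold, and their median log2 difference was -0.16. The median of all 10 was -0.16 as well, beside 0.00407 for all genes. In all, 7 of the 10 members had a log2 difference below 0, beside 49.3% of all genes. Without rescaling, 9 members had one, beside 73.9% of all genes.

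**Figure D3:**
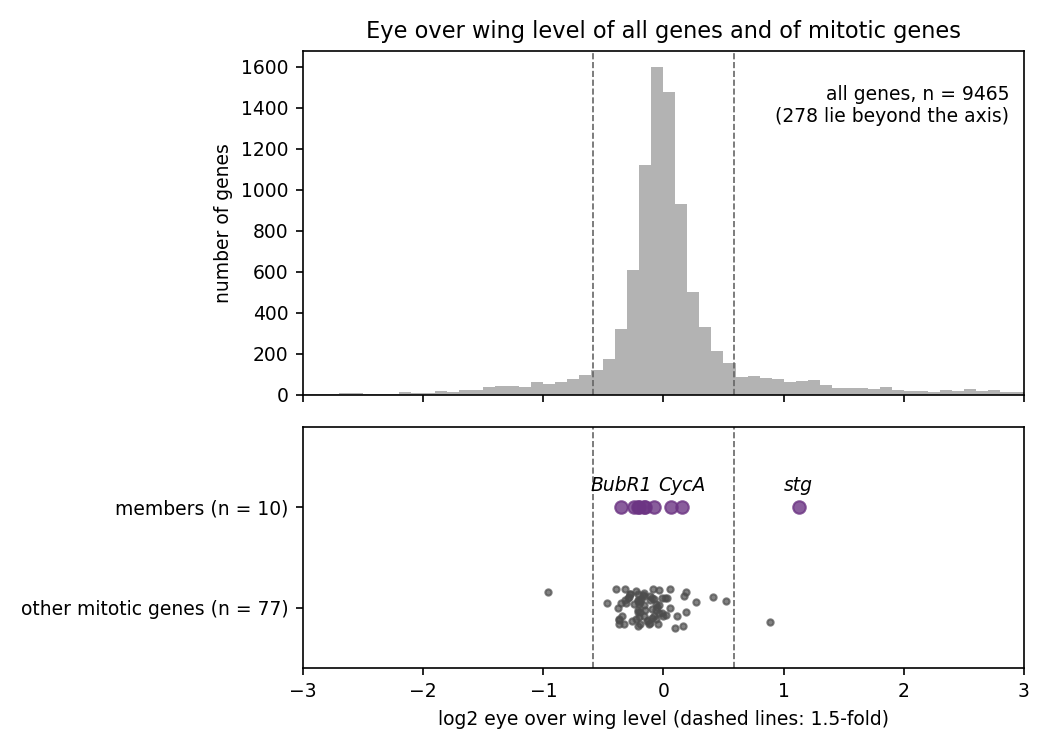
Log2 eye over wing level (horizontal axis) of all 9465 genes past the filter on low values as a histogram (top), and of the 10 members and 77 other mitotic genes as points (bottom, where the height within the lower row has no meaning). Dashed lines mark 1.5-fold. *stg* lies at 1.13, outside the lines, and the other 9 members lie between them, from *BubR1* at -0.35 to *CycA* at 0.15.

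The members were set beside 79 other genes of mitosis, listed by their role. All 79 were matched to the tables, and 77 reached a mean of 10 in both tissues. The kinesin gene *Klp59C* and the APC/C gene *APC7* did not. Of the 77 genes 1 was at least 1.5-fold higher in eye discs (12.9% of all genes) and 1 at least 1.5-fold lower (7.68% of all genes). A log2 difference below 0 was found for 62 (80.5%), beside 49.3% of all genes, and the median was -0.15. These shares depend on the scaling. Without rescaling 73.9% of all genes lay below 0, and with the upper quartile 56.0%. The count among the 77 genes was not taken under those scalings. The range of these genes ran from -0.96 to 0.89, and among the 87 mitotic genes together *stg* had the highest log2 difference.

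The groups of these genes had medians from -0.21 to -0.07. The 7 regulators of Cdk1 had a median of -0.11. Among them *endos*, which inhibits the phosphatase that opposes Cdk1, stood at 187 ppm per kb in eye and 180 in wing discs, and the Cdk subunit gene *Cks30A* at 61.4 in eye and 70.8 in wing discs. *twe*, which encodes the Cdc25 phosphatase of meiosis, stood at 2.60 ppm per kb in eye and 3.26 in wing discs, where *stg* stood at 104 in eye and 47.5 in wing discs, and had a log2 difference of -0.33. All 8 listed checkpoint genes beside *BubR1* had differences below 0, where 49.3% of all genes did. Their log2 differences ran from -0.25 to -0.01, with a median of -0.10. Among them *Bub3*, whose product binds BubR1, stood at 134 ppm per kb in eye and 145 in wing discs. *Mad1* stood at 32.7 in eye and 33.9 in wing discs. The partners of Aurora B in the passenger complex had a median of -0.20, with *borr* at 68.0 ppm per kb in eye and 71.7 in wing discs and *Incenp* at 66.7 in eye and 83.3 in wing discs.

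The 12 APC/C genes and cofactors had a median of -0.07. The ubiquitin-conjugating enzyme gene *vih* stood at 83.9 ppm per kb in eye and 88.8 in wing discs, and *Rca1*, an inhibitor of the APC/C, at 29.9 in eye and 26.8 in wing discs. The subunit gene *lmgA* was the gene at least 1.5-fold lower in eye discs, with a mean normalized count of 34.2 in eye and 75.6 in wing discs. It shares a transcript with a neighbouring reading frame, *lmgB*, so its count is uncertain. The genes of sister separation, cohesin and condensin had a median of -0.19, with *vtd*, a cohesin subunit, at 44.2 ppm per kb in eye and 36.7 in wing discs and the condensin subunit gene *barr* at 42.7 in eye and 48.6 in wing discs. The kinetochore genes had a median of -0.17. *Spc25* stood at 40.0 ppm per kb in eye and 43.6 in wing discs, and *Nnf1a* at 34.0 in eye and 44.1 in wing discs. Its paralogue *Nnf1b* was the gene at least 1.5-fold higher in eye discs, with a mean normalized count of 128 in eye and 78.6 in wing discs. The spindle and centrosome genes had a median of -0.21, with the kinesin gene *Klp10A* at 61.1 ppm per kb in both tissues and *tacc*, which stabilises centrosomal microtubules, at 50.8 in eye and 49.9 in wing discs. The cytokinesis genes had a median of -0.16, with the septin gene *pnut* at 121 in eye and 124 in wing discs and the Anillin gene *scra* at 66.4 in eye and 77.0 in wing discs, again ppm per kb.

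**Figure D4:**
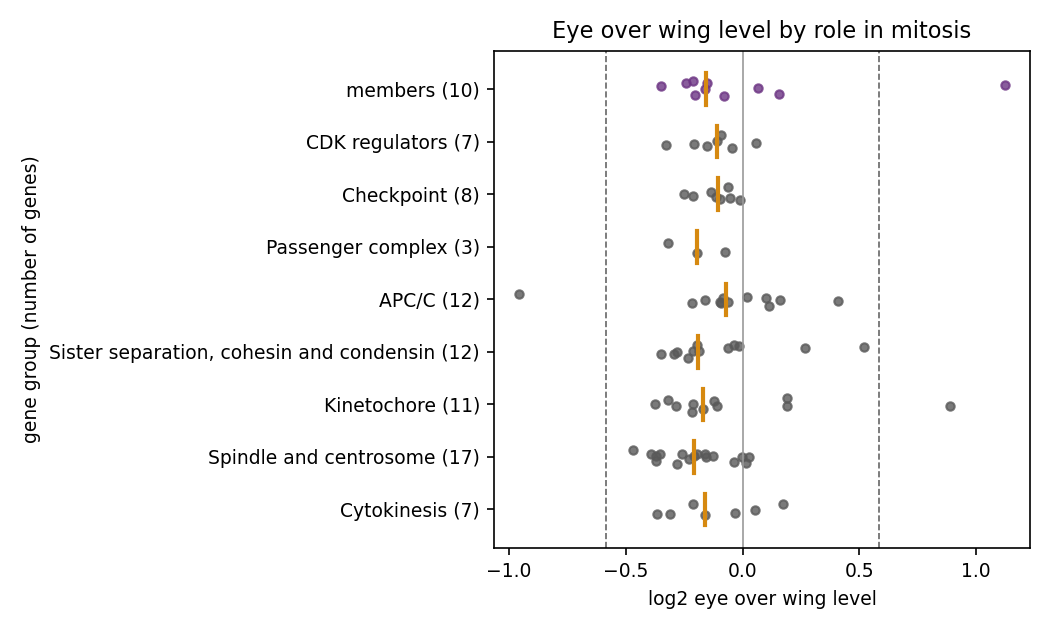
Log2 eye over wing level (horizontal axis) of the 10 members and of 77 other mitotic genes by role (rows, with the number of genes in brackets). Points are genes, orange bars are medians and dashed lines mark 1.5-fold. The medians lie between -0.21 and -0.07, and *stg* (1.13), *Nnf1b* (0.89) and *lmgA* (-0.96) lie outside the dashed lines.

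Within its own tissue most members stood high among the protein coding genes. By the level per kb, the members reached from percentile 56.7 (*aurA*) over 61.4 (*BubR1*) to 93.8 (*polo*) of 9482 genes in eye discs, and from 60.4 (*aurA*) over 67.8 (*BubR1*) to 94.2 (*polo*) of 9152 genes in wing discs. Their median percentile was 88.1 in eye and 85.8 in wing discs, beside 60.5 in eye and 64.4 in wing discs for the other mitotic genes. By the mean normalized count with no regard to length, among all genes that reached a mean of 10, the median percentile of the members was 83.8 in eye and 84.9 in wing discs. For the 79 other mitotic genes it was 73.6 in eye and 74.4 in wing discs, so the gap to the members was smaller by this measure. The 10 members together made up 1757 ppm of the table sum in eye and 1719 ppm in wing discs. Of these totals *stg* made up 276 ppm in eye and 127 ppm in wing discs, while 7 of the 10 members had a lower level in eye discs. The near equality of the totals thus does not describe the single members.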

How the data were processed

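RNA-seq libraries were made with an NEBNext Ultra kit from pooled discs and sequenced on a HiSeq 1000. The authors quantified the reads with Salmon 1.1.0 on BDGP6.22, read the estimates in by tximeta, and ran DESeq2 1.30.0 on *fuss* overexpression and control (versions from the submitters' processing notes). The deposited tables, 1 per tissue, give for each gene a signal, the mean normalized count over the 6 libraries of the tissue. Their other columns hold the authors' own comparison of the genotypes (log2 fold change, standard error, statistic, p-value and adjusted p). These were not used, and values per library were not analysed here.

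Each mean was divided by the sum of its table and given in ppm of it, and for levels between genes also divided by the median spliced transcript length of the BDGP6.54 annotation (17083 of 17208 gene identifiers matched, no coordinates being in the tables). The log2 eye over wing difference was taken over genes with a mean of at least 10 in both tables, and a fold of 1.5 counted as higher or lower. The arithmetic of the scalings and ratios was tested on simulated data, where 1 table was a constant multiple of the other apart from known changes in some genes. That cannot show which scaling suits tables that differ in composition as the eye and wing tables do. The members and the gene lists were chosen with earlier results of these data known. Of the listed names 111 matched by symbol, 2 by an older symbol (*wee* as *Wee1*, *lmg* as *lmgA*) and 1, *ald*, an older name of *Mps1* and *Ald1*, was taken as the checkpoint gene *Mps1* for its place in the list. In full were described the 10 members, and of each list the 2 genes of highest level per kb in eye discs and those past 1.5-fold. *twe*, *Klp59C* and *APC7*, the ratios between members and the leading use of percentiles per kb were chosen after values were seen. Alternatives were other scalings, folds, low filters, transcript lengths and gene sets for the percentiles. Sequence motifs were planned and not analysed here. On the lanes, the eye genotypes were each split as 1 library on lane 5 and 2 on lane 6, and in wing discs all 3 *fuss* libraries and 1 control were on lane 5 and 2 controls on lane 6. Python 3.11.15, numpy 2.4.6, pandas 2.3.3 and matplotlib 3.10.9 were used.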

Additional observations from a re-analysis of the deposited data

How the results depend on the processing

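No paired analysis was possible because the deposited means pool the replicates, and for the same reason no replicate could be left out. The scaling of the tables moved all 10 members together. With the deposited means as they stand, the median of the members was -0.34 and the median of all genes -0.18, a shift of -0.19. In that setting *CycA* (-0.03) and *CycB3* (-0.12) turned below 0, and *stg* was at 0.94. With the median ratio of genes, the upper quartile or the table sum without *fuss* and the 50 highest genes, the shift of all members lay between -0.0415 and -0.00407, and the difference of *stg* lay between 1.08 and 1.12. *stg* was past 1.5-fold under all 4 other scalings and past a fold of 2 under the scaling used. At a threshold midway between 1 and 1.5, 1 member (*BubR1*) was lower in eye discs. Of the 77 other mitotic genes 3 were higher and 10 lower at that threshold, beside 19.2% higher and 13.2% lower of all genes. At a fold of 2, 0 were higher and 0 lower, beside 9.06% higher and 4.48% lower of all genes. Their number of lower genes at 1.5-fold was 2 without rescaling (10.7% of all genes) and 0 with a mean of at least 50 in both tables (5.58% of all genes). With the longest transcript 2 of 10 ranks changed in each tissue, and with the coding length 7 changed in eye and 5 in wing discs.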

Other observations

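Of the 77 other mitotic genes, 15 had a log2 difference above 0, beside 4803 of all 9465 genes past the filter. Those with the highest, *Nnf1b*, *Cap-H2* and *fzr*, are described here and were picked after their values were seen. *fzr*, the Cdh1-like activator of the APC/C that acts in G1 and in cells that have left the cycle, had a mean normalized count of 1446 in eye and 1242 in wing discs, a log2 difference of 0.41. The ratio of *fzr* to *fzy* per kb was 0.323 in eye and 0.205 in wing discs, 1.57 times higher in eye discs. *Cap-H2*, a subunit of the second condensin complex, had a log2 difference of 0.52, and its ratio per kb to *Cap-D2*, a subunit of the first, was 0.732 in eye and 0.421 in wing discs. *Cap-D2* had a log2 difference of -0.28. Of the other listed condensin genes, *barr* had -0.19, *Cap-G* -0.23, *glu* -0.29 and *SMC2* -0.35. Ratios to these were not taken, so the ratio describes this chosen pair and not the complexes. *Nnf1b* stood at 0.160 times the level of *Nnf1a* per kb in eye and at 0.0666 times in wing discs. *Nnf1a* and *Nnf1b* are paralogues, and how the counting divided reads between them was not tested. All of these are pooled values with no replicate check.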
